A study of Sus scrofa with 12 samples.

Results

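Solute carriers (SLC) are the membrane proteins that move sugars, amino acids, ions, metals, vitamins and metabolites into and out of cells and organelles without hydrolysing ATP themselves. The set described here holds the probe sets of the porcine array whose single gene symbol begins with SLC and a digit, with the brightest probe set over the 12 arrays standing for each symbol. There were 176 such probe sets for 120 symbols, and 89 symbols passed a filter on low values, which asked for a value above the 40th percentile of the array on at least 3 arrays. These 89 stood among 5765 named genes that passed the same filter. By family they comprised 86 carriers and 3 symbols that are not carriers, namely the scaffold proteins SLC9A3R1 and SLC9A3R2 and the transcription factor SLC2A4RG. RNA came from the longissimus dorsi, the long back muscle, of Meishan pigs, a Chinese breed raised under ordinary commercial conditions. Muscle was taken at 65 days post coitus (dpc), when the fetuses of a sow counted as 1 individual, and at 3, 60 and 120 days after birth. Each stage had 3 samples that the labels call biological replicates, with 1 array each, and sex and litter are not given. All animals were untreated, and the study asked how expression develops with the muscle.

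Muscle fibres take up glucose through facilitative transporters of the SLC2 family. SLC2A4 (GLUT4) is the form that insulin and contraction bring to the surface of muscle and fat cells, while SLC2A1 (GLUT1) and SLC2A3 (GLUT3) are widespread forms that do not depend on insulin. Most SLC25 proteins sit in the inner mitochondrial membrane, where they exchange ADP for ATP, import phosphate and carry the substrates of respiration. Amino acid carriers of the SLC1, SLC3, SLC6, SLC7 and SLC38 families feed protein synthesis and supply creatine, and several SLC30, SLC31, SLC39 and SLC41 proteins handle zinc, copper and magnesium.

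Intensities are deposited on a linear scale in arbitrary units. Array medians lay between 49.1 and 52.6, and the 40th percentile between 33.9 and 37.3. The tissue label fits its markers: 12 of 15 muscle fibre markers were matched, all 12 passed the filter, and their summed intensity was 33566 to 50729 in the fetus and 61460 to 67963 at 3 days. Other marker lists moved with stage as well. The summed level of 10 matched fibroblast and matrix markers went from 20224–32776 in the fetus to 6577–10930 at 3 days, that of 6 nerve and Schwann cell markers from 1136–1413 to 534–574, and that of 10 adipocyte markers from 796–1071 to 2094–2626. The sum of 11 endothelial markers was 1948 to 3394 in the fetus and 1786 to 1844 at 3 days, that of 5 smooth muscle and pericyte markers 2566 to 4855 and 4091 to 5786, and that of 7 erythroid markers 1042 to 1913 and 1177 to 1635. The immune list, with 10 matched markers, summed to 392.2, 347 and 3774 on fetal replicates 1, 2 and 3, so fetal replicate 3 stood apart, and to between 590 and 1041 at 3 days. A sum follows its brightest genes. Gene by gene, the limma fit described below called 9 of the 12 muscle fibre markers higher at 3 days and 0 lower. Of the 6 nerve and Schwann cell markers it called 3 higher and 3 lower. Of the 11 endothelial markers 1 was called higher and 1 lower, and of the 10 fibroblast and matrix markers 0 and 8. Of 9 kept adipocyte markers 5 were called higher and 0 lower. Of 5 kept erythroid markers 1 was called higher and 1 lower, and so were those of 5 smooth muscle and pericyte markers. Of 8 kept immune markers 0 were called higher and 0 lower. Over all probe sets 20.3% were called higher and 22.6% lower. No marker was listed at 0, the lowest single value being 7.14. The 3-prime to 5-prime ratio of the actin controls averaged 2.45 ± 0.168 (SD, n = 3) before birth, and 3.61 ± 1.06, 5.10 ± 1.17 and 5.08 ± 0.896 at 3, 60 and 120 days. The part of these shifts in the results on carriers was not tested, and in a whole tissue fewer cells of a type and less RNA per cell cannot be told apart.

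Most of the change in carriers fell between the fetus and 3 days after birth. Here and below, a change at birth means a change over this whole step. No array lies between these stages, so late fetal change and change at delivery cannot be told apart, and no change can be timed to birth itself. At this step 29 of 89 members rose and 14 fell, which together is 48.3%. Among all 16166 probe sets above the filter, limma called 20.3% higher and 22.6% lower, or 43.0% in either direction, with Benjamini-Hochberg adjusted p under 0.05. With 1 probe set for each of the 5765 named genes, 22.7% were higher and 19.1% lower. The median log2 change of the members was 0.13, against -0.00045 over all probe sets. Fetal and 3-day arrays were fully separated for 47 of 89 members, called or not, and for 53.0% of all probe sets, so the members did not stand apart from the background by this count. Those 47 included 25 of the rises and 13 of the falls. The number of falls rested on single arrays: it was 6 without 3-day replicate 1 or 2, 8 without fetal replicate 2 and 9 without fetal replicate 3. At an unadjusted p under 0.05 there were 52 members, against 51.3% of all probe sets. Largest among the rises were 4 mitochondrial carriers, SLC25A12, SLC25A11, SLC25A20 and SLC25A4, and largest among the falls the peptide carrier SLC15A2 and the glucose carrier SLC2A3. The overall F test across the 4 stages called 49 of 89 members, or 55.1%, against 46.9% of all probe sets.

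How many carriers counted as rising depended on the scaling. The deposited values have nearly equal medians, and centring them on the 27 hybridization control probe sets moved the median of all probe sets at birth by -0.28 on the log2 scale. With that centring 13 members rose and 26 fell, so that rises were 33.3% of the calls and not 67.4%. Over all probe sets the share of calls that were higher went from 47.3% to 19.0%. None of the 29 rises turned into a called fall. All 14 falls were kept, which the downward move of all changes made likely. The 13 rises that were kept belonged to SLC2A4, SLC3A2, SLC6A8, SLC25A3, SLC25A4, SLC25A11, SLC25A12, SLC25A20, SLC25A37, SLC30A3, SLC41A1, SLC44A2 and SLC46A3. On the deposited scaling their log2 changes ran from 0.69 to 1.96, and those of the 16 rises that were lost from 0.33 to 1.15. With the centring the 13 ran from 0.40 for SLC46A3 to 1.68 for SLC25A12. All changes below are on the deposited scaling, and so relative to the median of the array, unless the centring is named. Of the rises at birth, those in that list of 13 were called under both scalings.

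**Figure D1:**
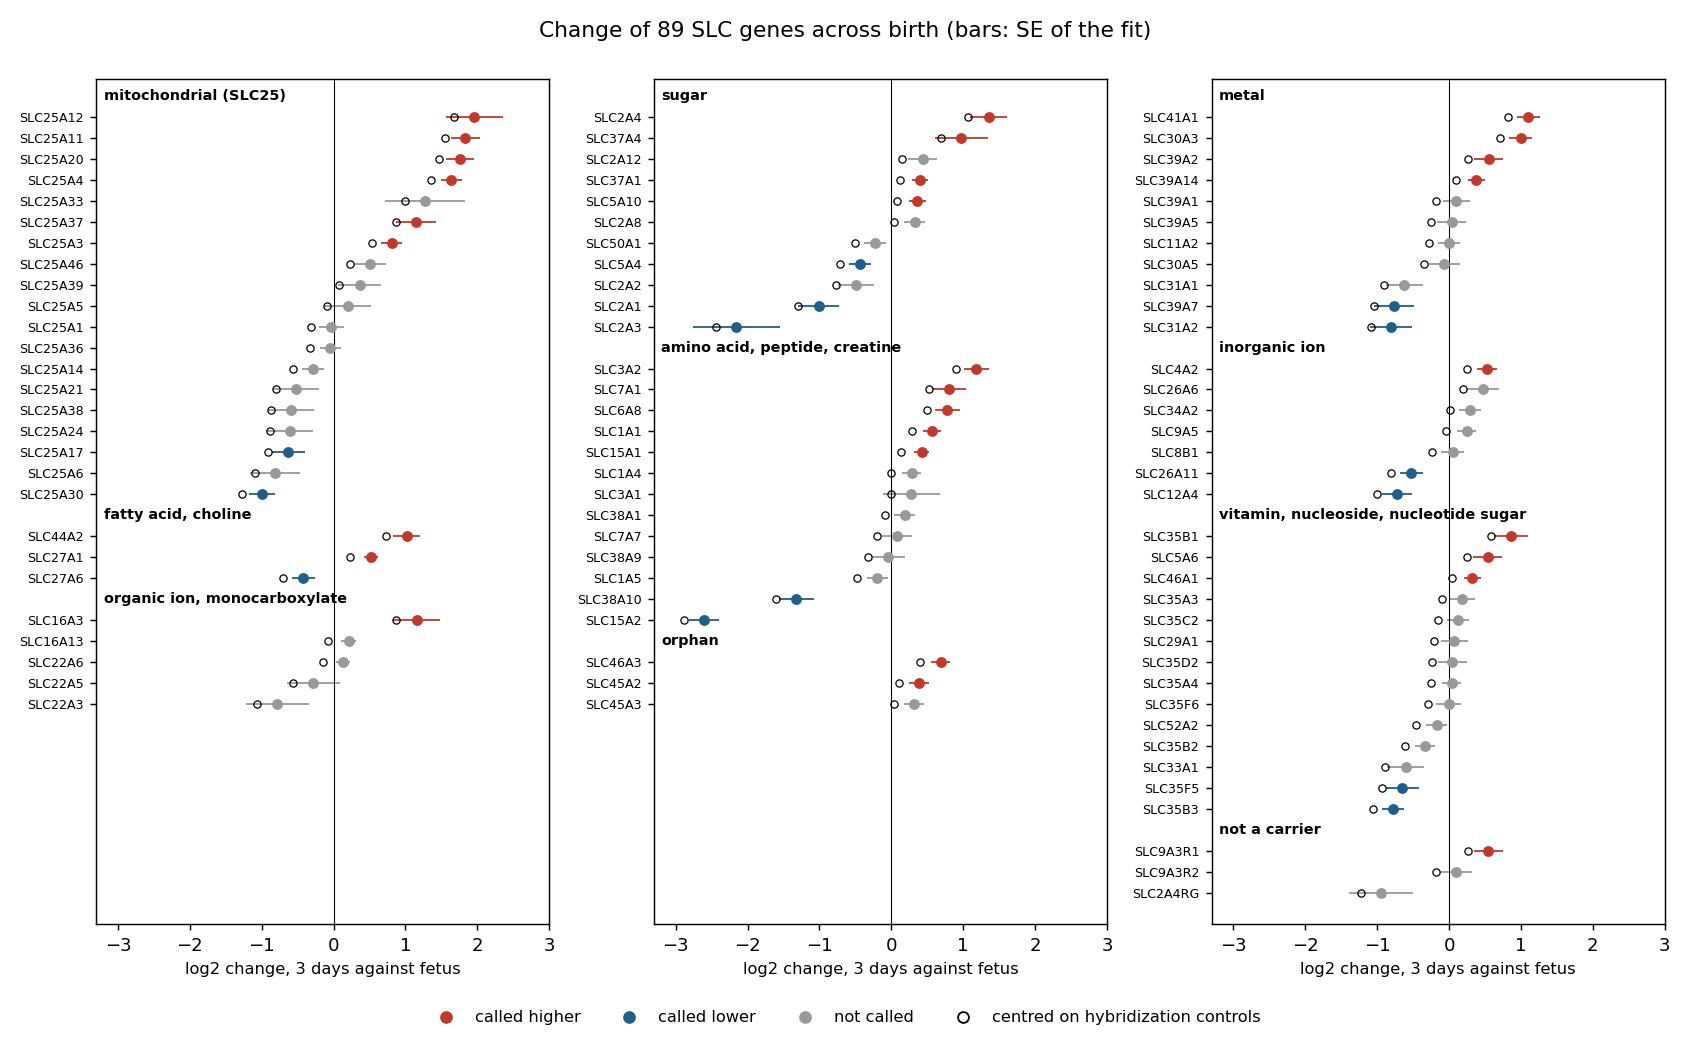
Log2 change from the fetus to 3 days for all 89 members, grouped by substrate class, with filled points and bars for the estimate and its SE on the deposited scaling and open circles for the estimate after centring on the hybridization controls. The mitochondrial carriers SLC25A12, SLC25A11, SLC25A20 and SLC25A4 lie at 1.96, 1.84, 1.75 and 1.64, and the peptide carrier SLC15A2 lies lowest at -2.602.

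Among the 11 sugar carriers, 4 (36.4%) rose and 3 (27.3%) fell at birth, where 20.3% of all probe sets were higher and 22.6% lower. The glucose transporters moved in opposite directions. SLC2A4, the insulin-responsive GLUT4, read 7.35, 10.6 and 14.8 in the fetus, 34.9, 57.4 and 100.9 at 3 days, 128, 215 and 130 at 60 days, and 77.1, 93.1 and 118 at 120 days. No fetal array reached the lowest array after birth. Mean intensity went from 10.9 ± 3.73 (SD, n = 3) to 64.4 ± 33.5. SLC2A4 thus rose by 1.35 ± 0.26 on the log2 scale (SE, limma adjusted p = 0.00168). All 3 fetal values lay below the 40th percentile of their arrays, where intensities separate poorly from background, so the size of the fold is uncertain. SLC2A4 passed the filter only through arrays taken after birth, so its membership is not independent of the rise. Its level was 1.11 higher on the log2 scale at 60 than at 3 days, which did not pass (adjusted p = 0.0592). A further kept probe set of SLC2A4 rose at birth as well, from 52.1 ± 10.3 to 111 ± 5.14 (log2 0.86, adjusted p = 0.000468). After birth it ran the other way, at 74.5 ± 5.04 at 60 days (log2 change from 3 days -0.47, adjusted p = 0.109). The probe sets of SLC2A4 thus share the rise at birth and disagree after it.

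SLC2A1, the GLUT1 form, read 93.6, 76.3 and 154 in the fetus and 29.1, 23.4 and 86.6 at 3 days. From 60 days on it lay between 18.9 and 27.2 on all 6 arrays, below every fetal array. Its fall at birth was -1.01 ± 0.29 (adjusted p = 0.0138), with 3-day replicate 3 above the lowest fetal array. Without 3-day replicate 1, 3-day replicate 2 or fetal replicate 3 the change was -0.85, -0.77 and -0.77, and the call was lost (adjusted p = 0.0583, 0.0626 and 0.0511). SLC2A1 was lower by 1.52 ± 0.29 at 120 days than in the fetus (adjusted p = 0.00107).

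SLC2A3, the GLUT3 form, read 191, 185 and 1402 in the fetus and 54.2, 36.8 and 140 at 3 days. Every fetal array was above every later one, but fetal replicate 3 stood far above the others. SLC2A3 fell by 2.16 ± 0.61 on the log2 scale (adjusted p = 0.0133), by 1.24 without fetal replicate 3 (adjusted p = 0.0145), and by 1.85 without 3-day replicate 2, where the call was lost (adjusted p = 0.0546). Fetal replicate 3 is also the array with the immune marker sum of 3774, and the part of that in the level of SLC2A3 was not tested. SLC2A3 stayed between 33.7 and 68.7 at 60 and 120 days.

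SLC37A4, which carries glucose 6-phosphate into the endoplasmic reticulum, was the brightest sugar member over the series. It read 86.0, 75.2 and 65.6 in the fetus, 244, 166 and 116 at 3 days, 308, 141 and 449 at 60 days, and 410, 408 and 703 at 120 days. Its rise at birth was 0.98 ± 0.37 (adjusted p = 0.0472), a call lost in 8 of 12 fits that each left out 1 array, with adjusted p up to 0.172 without 3-day replicate 1. From the fetus to 120 days it rose by 2.41 ± 0.37, or 6.71-fold in mean intensity (adjusted p = 0.000252), and that call was kept in all 12 of those fits and under hybridization-control centring. The arrays of the fetus and of 120 days are far apart.

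SLC2A12, the GLUT12 form found in insulin-sensitive tissues, was the member that rose from 3 to 60 days. It read 17.6, 21.9 and 25.2 in the fetus, 35.3, 47.5 and 28.2 at 3 days, 127, 60.8 and 115 at 60 days, and 126, 114 and 97.8 at 120 days. Arrays of 60 and 120 days were all above those of 3 days. The log2 change from 3 to 60 days was 1.04 ± 0.21 (adjusted p = 0.0297), and the call was lost without any of 3-day replicates 1, 2 and 3, 60-day replicates 1 and 3 or 120-day replicate 2, at log2 changes of 0.87 to 1.16 and adjusted p of 0.0504 to 0.113. It was also lost in a fit of only the 6 arrays compared (adjusted p = 0.141) and in a fit with the replicate number as a block.

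SLC5A4, of the sodium and glucose cotransporter family, fell by 0.43 ± 0.15 at birth, from 65.9, 76.2 and 87.6 to 59.6, 50.9 and 43.1 (adjusted p = 0.0323, and 0.0704 to 0.107 without 3-day replicate 2 or 3 or fetal replicate 2 or 3). The other 2 called sugar carriers were dim, at stage means under 50: SLC37A1 rose by 0.40 and SLC5A10 by 0.36. SLC5A10 lost its call without 3-day replicate 1 or 2 or fetal replicate 2 (adjusted p = 0.0813 to 0.0950). SLC2A8, an intracellular sugar transporter, had no call at birth (log2 0.33, adjusted p = 0.0885), nor had SLC2A2 (-0.49) and SLC50A1 (-0.22). With hybridization-control centring, 1 sugar carrier rose at birth, SLC2A4, and 5 fell.

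**Figure D2:**
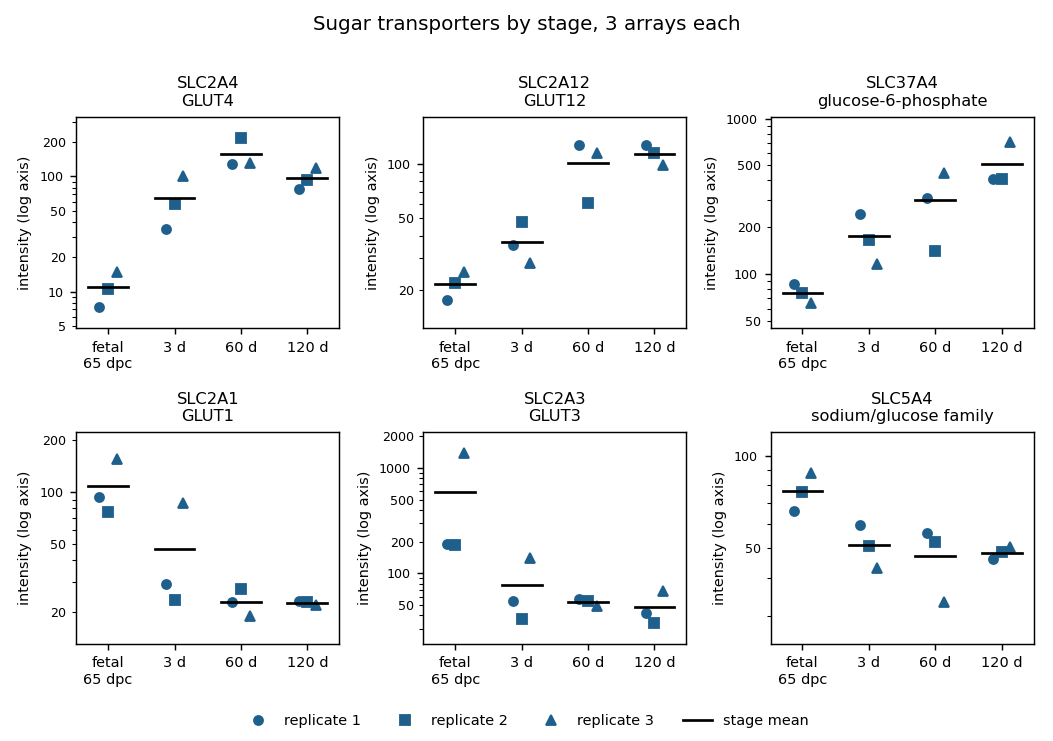
Intensity on a log axis in each of the 12 arrays for 6 sugar carriers, with a point per array, shaped by replicate number, and a bar for the stage mean. SLC2A4 rises from 7.35–14.8 in the fetus to 34.9–100.9 at 3 days, while SLC2A3 falls from 185–1402 to 36.8–140.

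Of 14 kept genes on the list of proteins that move GLUT4 to the surface and answer to insulin, 1 rose, 6 fell and 7 had no call at birth, where 20.3% of all probe sets were higher and 22.6% lower. IRS1, the insulin receptor substrate, rose from 29.4, 20.6 and 22.4 to 100, 80.1 and 57.7 (log2 1.13, adjusted p = 0.000903). HK1, the hexokinase of most tissues, fell from 568, 586 and 933 to 181, 175 and 294 (log2 -1.59, adjusted p = 0.000359). The vesicle GTPases RAB13 (-1.22) and RAB8A (-0.72), the Rab regulator TBC1D1 (-0.97), the kinase AKT1 (-0.76) and the membrane fusion protein SNAP23 (-0.72) fell too. The list's median log2 change was -0.23, against -0.00045 over all probe sets, and the list has no called gene at the later steps.

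The SLC25 family, taken as the mitochondrial class, was the largest, with 6 of 19 members (31.6%) higher and 2 (10.5%) lower at birth. It includes the peroxisomal carrier SLC25A17, which was among the falls. Over all probe sets 20.3% were higher and 22.6% lower. With hybridization-control centring all 6 rises were kept, and 7 members of the class were lower. Of all 16166 probe sets 1253 were then higher and 5338 lower. SLC25A4 (ANT1), the ADP/ATP carrier of heart and skeletal muscle, read 1713, 1846 and 1912 in the fetus and 6084, 5928 and 5185 at 3 days. All 9 arrays after birth, from 4190 to 6084, lay above all fetal arrays. It rose by 1.64 ± 0.15 on the log2 scale, or 3.14-fold in mean intensity (adjusted p = 1.42e-05). SLC25A3, the phosphate carrier, rose from 2570, 3313 and 2773 to 5436, 5353 and 4417 (log2 0.81 ± 0.15, adjusted p = 0.00115). The fetal and 3-day arrays of SLC25A3 did not overlap, but its call was lost with its second probe set.

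The other ADP/ATP carriers did not rise. SLC25A6 (ANT3), a widely expressed form, read 3128, 3654 and 3666 in the fetus and 1302, 1939 and 3003 at 3 days (log2 -0.81 ± 0.34, adjusted p = 0.0739). At 120 days it read 1121, 1032 and 1078, below every fetal array. The change of SLC25A6 from the fetus to 120 days was -1.67 ± 0.34, a fall of 3.23-fold in mean intensity (adjusted p = 0.00189). SLC25A5 (ANT2), the form of dividing cells, read 176, 114 and 406 in the fetus and 232, 238 and 239 at 3 days (log2 0.20 ± 0.32, adjusted p = 0.648), with the highest value on fetal replicate 3. The 3-day values of SLC25A5 lie inside its fetal range.

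The 3 largest rises of any member at birth were those of SLC25A12, SLC25A11 and SLC25A20. SLC25A12, the aspartate and glutamate carrier of the malate-aspartate shuttle in muscle and brain, read 315, 381 and 229 in the fetus and 1879, 1583 and 629 at 3 days (log2 1.96 ± 0.40, adjusted p = 0.00223). Its partner in that shuttle, the oxoglutarate and malate carrier SLC25A11, read 182, 146 and 173 and then 676, 703 and 575 (log2 1.84 ± 0.20, adjusted p = 5.02e-05). SLC25A20, which brings acylcarnitines in for fatty acid oxidation, read 102, 82.8 and 84.1 and then 292, 310 and 475 (log2 1.75 ± 0.20, adjusted p = 5.31e-05). In each of these the 3-day arrays were all above the fetal ones. At 60 days SLC25A12 was at 965 to 1740, SLC25A11 at 310 to 495 and SLC25A20 at 233 to 285, with no call from 3 to 60 days.

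Of the iron and heme carriers, SLC25A37 (mitoferrin 1), which brings iron to heme synthesis, rose from 75.6, 60.0 and 93.3 to 246, 218 and 131 (log2 1.15 ± 0.27, adjusted p = 0.00558), with arrays that did not overlap. The summed erythroid markers overlapped between these stages, and of 5 kept erythroid markers 1 was called higher and 1 lower. The part of erythroid cells in the level of SLC25A37 was not tested. SLC25A38, the glycine carrier of heme synthesis, was not called (116 ± 44.2 in the fetus and 68.2 ± 21.1 at 3 days, log2 -0.59, adjusted p = 0.147). Falls were called for SLC25A30, a relative of the uncoupling proteins, and SLC25A17, a peroxisomal carrier. SLC25A30 went from 197, 271 and 282 to 121, 111 and 109 (log2 -0.998 ± 0.18, adjusted p = 0.0011). SLC25A17 went from 142, 157 and 215 to 96.6, 117 and 92.4 (log2 -0.63 ± 0.23, adjusted p = 0.0421), and its call was lost in 7 of 12 fits that left out 1 array (adjusted p up to 0.136). The 11 mitochondrial members without a call included SLC25A33, a pyrimidine nucleotide carrier whose 3-day values of 85.0, 139 and 258 scattered widely (log2 1.28 ± 0.56, adjusted p = 0.083).

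From the fetus to 120 days 6 mitochondrial carriers were higher and 5 lower, where 23.4% of all probe sets were higher and 25% lower. The 5 falls were SLC25A6, SLC25A30, the citrate carrier SLC25A1 (159 ± 13.9 to 95.6 ± 12.4, log2 -0.63, adjusted p = 0.00933), the oxodicarboxylate carrier SLC25A21 (376 ± 119 to 130 ± 6.00, log2 -1.34, adjusted p = 0.00472) and the ATP-Mg and phosphate carrier SLC25A24 (717 ± 303 to 326 ± 9.72, log2 -0.998, adjusted p = 0.0234). The call for SLC25A24 was lost without fetal replicate 1 or 2 or any of the 120-day arrays (adjusted p = 0.0518 to 0.0995), and that for SLC25A30 without fetal replicate 2 or 3 or 120-day replicate 1 or 2 (adjusted p = 0.0693 to 0.0751). SLC25A1, SLC25A21 and SLC25A6 kept theirs in all 12 fits.

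**Figure D3:**
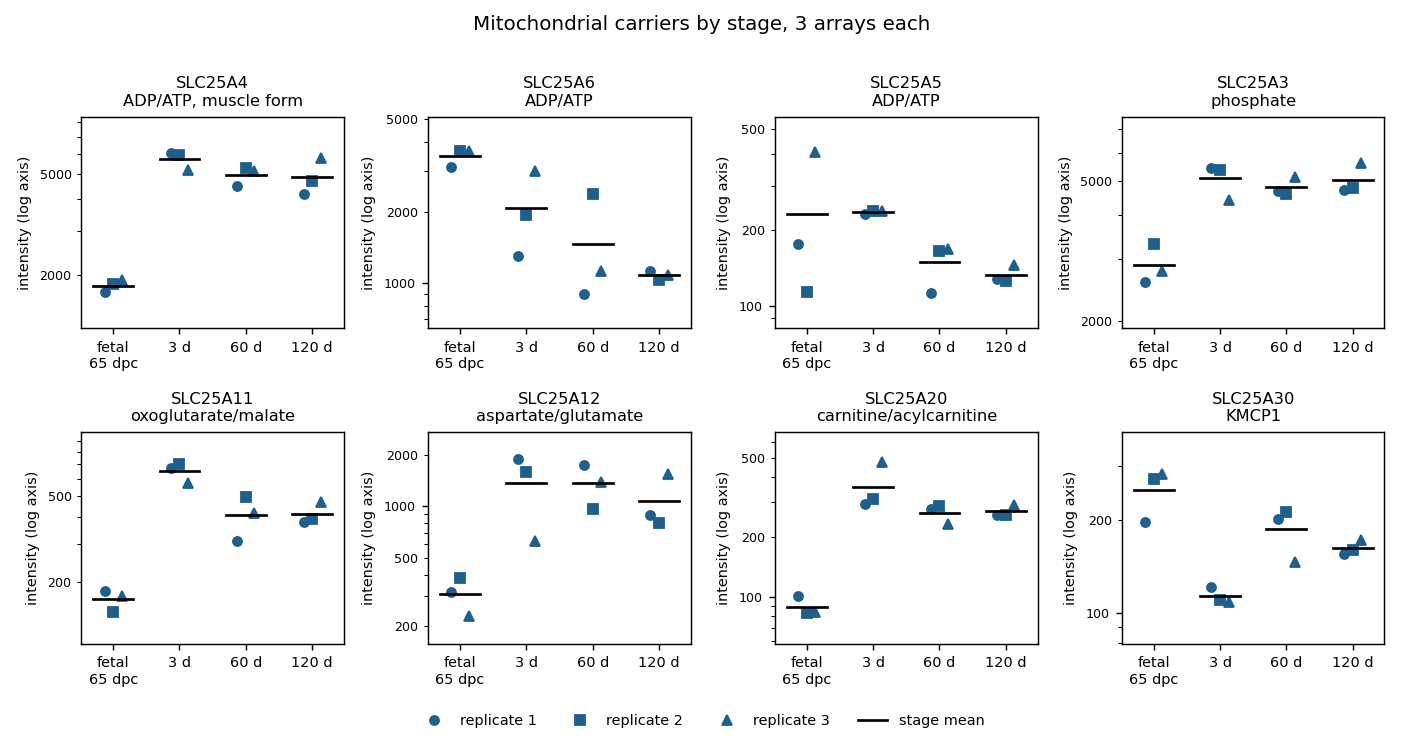
Intensity on a log axis in each of the 12 arrays for 8 mitochondrial carriers, with a point per array, shaped by replicate number, and a bar for the stage mean. SLC25A4 lies at 1713 to 1912 in the fetus and 4190 to 6084 after birth, and SLC25A6 moves from 3128–3666 in the fetus to 1032–1121 at 120 days.

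Mitochondrial and other carriers that bear other names were counted from a separate list. Of 14 kept genes, 8 rose and 1 fell at birth, where 20.3% of all probe sets were higher and 22.6% lower. MPC2, a subunit of the pyruvate carrier, rose from 904, 413 and 858 to 2705, 2575 and 2574 (log2 1.90, adjusted p = 0.00109), while MPC1 was not called (0.57). The outer membrane channels VDAC1, VDAC2 and VDAC3 rose by 0.90, 1.16 and 0.89, MTCH2 by 1.75 and LETM1 by 0.77. The uncoupling protein UCP3 rose by 1.499 at birth and again by 2.48 from 3 to 60 days, when it went from 75.5, 49.5 and 152 to 411, 454 and 971 (adjusted p = 0.0138). SFXN4 rose by 0.70 and then fell by 0.92 (adjusted p = 0.0178). TSPO, an outer membrane protein abundant in steroid-making cells and macrophages, fell by 1.49, with 646 on fetal replicate 3. The median log2 change of the list at birth was 0.73.

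Of 9 kept genes on the list of the carnitine shuttle, which hands fatty acids to SLC25A20, 5 rose at birth, 0 fell and 4 had no call, where 20.3% of all probe sets were higher. CPT1B, the muscle form of the enzyme that makes acylcarnitines, rose from 93.3, 68.7 and 86.9 to 646, 739 and 700 (log2 2.79, adjusted p = 1.68e-05). It fell by 1.54 from 3 to 60 days (adjusted p = 0.0167), a step at which SLC25A20 was not called (-0.38, adjusted p = 0.36). The acyl-CoA synthetase ACSL1 rose by 2.56 and the carnitine acetyltransferase CRAT by 1.76. The median of this list at birth was 0.81.

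Ratios within an array compare a pair of carriers free of the array's scaling, apart from the pseudocount. This comparison was chosen after the values were seen, and each ratio is given as its log2 change from the fetal mean because levels of different probe sets cannot be compared. The ratio of SLC2A4 to SLC2A1 was higher by 2.36 ± 0.375 (SD, n = 3) at 3 days, 3.97 ± 0.271 at 60 days and 3.39 ± 0.276 at 120 days. The size of these ratios is set in part by the pseudocount, since SLC2A4 in the fetus and SLC2A1 from 60 days on both lay below the 40th percentile of their arrays. The ratios with SLC2A4 use its brightest probe set. Its further kept probe set, described above, ran the other way from 3 to 60 days, so their increase over that span depends on the probe set. SLC2A4 over SLC2A3 was higher by 3.51 ± 0.493 at 3 days, with fetal arrays from -1.67 to 0.94. SLC25A4 over SLC25A6 was higher by 2.45 ± 0.714, 2.79 ± 0.638 and 3.07 ± 0.258 at the 3 stages after birth, and SLC25A4 over SLC25A5 by 1.44 ± 0.139, 1.85 ± 0.159 and 1.95 ± 0.151. In all 4 ratios the 3-day arrays were above the fetal ones, as the choice of the pairs made likely, and no test is given.

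**Figure D4:**
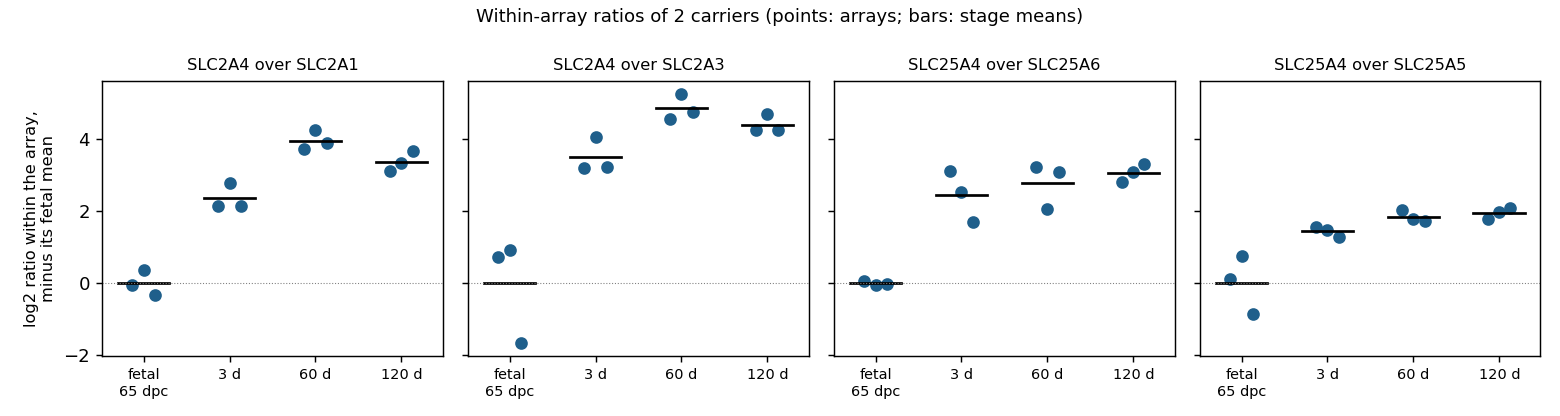
Log2 ratio of 2 carriers within each array, minus the fetal mean of that ratio, with a point per array and a bar for the stage mean. The ratio of SLC25A4 to SLC25A6 lies at 1.71 to 3.13 at 3 days and that of SLC2A4 to SLC2A1 at 2.14 to 2.80.

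Among 13 carriers of amino acids, peptides and creatine, 5 (38.5%) rose and 2 (15.4%) fell at birth. The shares over all probe sets were 20.3% and 22.6%. SLC15A2 (PEPT2), which takes up small peptides with protons, showed the largest fall of any member. It read 187, 248 and 100 in the fetus, and between 7.55 and 12.1 on all 9 later arrays, which lie below the 40th percentile of every array. SLC15A2 fell by 2.602 ± 0.21 on the log2 scale (adjusted p = 6.91e-06), or 17.5-fold in mean intensity, a fold that rests on values near background. SLC15A2 passed the filter only through its fetal arrays, so its membership is not independent of the fall. Both of its other kept probe sets fell as well, from 145 ± 72.1 to 17.5 ± 0.937 and from 123 ± 51.5 to 21.7 ± 3.85. Its relative SLC15A1, the intestinal form, was dim throughout, at 25.6 to 33.2 in the fetus and 44.9 to 48.9 at 3 days, and rose by 0.42 (adjusted p = 0.00743).

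SLC3A2, the 4F2 heavy chain that pairs with large neutral amino acid exchangers, rose from 65.8, 66.0 and 93.4 to 192, 172 and 224 (log2 1.18 ± 0.17, adjusted p = 0.00029). It stayed between 214 and 265 at 60 and 120 days, above every fetal array. SLC6A8, the creatine transporter, read 57.4, 60.2 and 63.4 in the fetus, 126, 111 and 119 at 3 days and 218, 179 and 152 at 120 days. Its log2 change was 0.78 ± 0.17 at birth (adjusted p = 0.00382) and 1.31 ± 0.17 from the fetus to 120 days (adjusted p = 0.000103). Both rises were kept with hybridization-control centring.

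SLC7A1 (CAT1), a carrier of arginine and lysine, peaked at 3 days. It read 83.9, 110 and 56.1 in the fetus, 110, 219 and 159 at 3 days, 78.7, 81.9 and 104 at 60 days and 54.5, 65.7 and 44.4 at 120 days. Its rise at birth was 0.81 ± 0.24 (adjusted p = 0.0158), lost without 3-day replicate 2 or fetal replicate 3 (log2 0.59 and 0.61, adjusted p = 0.0701 and 0.0586) and with hybridization-control centring (log2 0.53, adjusted p = 0.0785). From 3 to 120 days SLC7A1 fell by 1.24 ± 0.24 (adjusted p = 0.0128), the single member called lower over that span. That call was lost without 120-day replicate 1 or 3-day replicate 2 (log2 -1.24 and -1.03, adjusted p = 0.0631 and 0.0508). SLC1A1, a glutamate and aspartate carrier, rose from 49.6, 37.0 and 48.3 to 75.0, 81.5 and 72.7 (log2 0.57 ± 0.12, adjusted p = 0.00285). It lost the call with hybridization-control centring (0.29, adjusted p = 0.125) and with its second probe set.

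SLC38A10, a member of the sodium-coupled neutral amino acid family, fell from 157, 328 and 155 to 84.0, 60.7 and 60.6 (log2 -1.32 ± 0.25, adjusted p = 0.0013), with no overlap of arrays. The glutamine carriers were not called at birth: SLC1A5 (ASCT2) read 185 ± 14.4 in the fetus and 159 ± 16.5 at 3 days (log2 -0.19, adjusted p = 0.284), and SLC38A1 108 ± 11.98 and 126 ± 15.6 (0.19, adjusted p = 0.328). SLC3A1, the heavy chain of the cystine carrier and the brightest member of the class, was not called at birth either (log2 0.28, adjusted p = 0.596). From the fetus to 120 days it fell by 1.03 ± 0.40 (adjusted p = 0.0483), a call lost without any 1 of 8 arrays. Without 120-day replicate 2 the change of SLC3A1 was -0.63 (adjusted p = 0.213). SLC1A4, SLC7A7 and SLC38A9 lay within 0.28 of no change on the log2 scale at birth.

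Genes around creatine and taurine moved both ways. CKMT2, the mitochondrial creatine kinase of muscle, rose from 266, 168 and 198 to 3589, 2719 and 1706 (log2 3.49, adjusted p = 2.39e-05), and GAMT, which makes creatine, rose by 1.69. CDO1, the cysteine dioxygenase of taurine synthesis, fell by 3.21, from 1679, 1817 and 824 to 130, 111 and 147 (adjusted p = 3.23e-05), and CKB, the brain form of creatine kinase, fell by 2.07. CKM rose by 0.66, with 3-day values of 8633 to 8862. Of the amino acid sensing and stress list, 1 of 12 kept genes rose and 1 fell: the transcription factor ATF4 rose by 0.94 (adjusted p = 0.0074), and RRAGC, a GTPase of the mTOR pathway, fell by 0.74 (adjusted p = 0.0202). The median of these 12 was 0.35 at birth, a step at which 20.3% of all probe sets were higher and 22.6% lower.

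**Figure D5:**
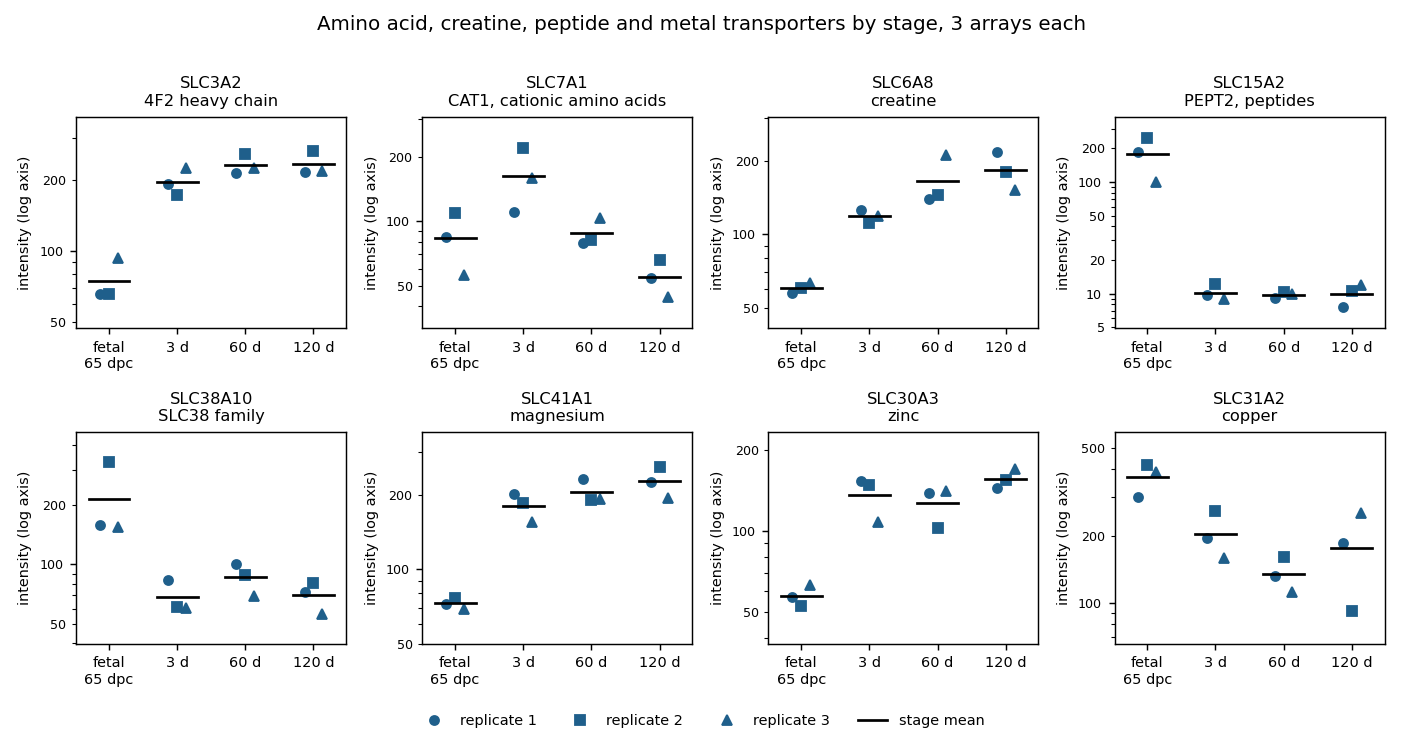
Intensity on a log axis in each of the 12 arrays for 5 amino acid, creatine and peptide carriers and 3 metal carriers, with a point per array, shaped by replicate number, and a bar for the stage mean. SLC15A2 drops from 100–248 in the fetus to 7.55–12.1 after birth, and SLC7A1 is highest at 3 days, at 110 to 219.

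Of 11 metal carriers, 4 (36.4%) rose and 2 (18.2%) fell at birth, against 20.3% and 22.6% of all probe sets. SLC41A1, a magnesium carrier, rose from 72.6, 76.4 and 69.3 to 202, 186 and 155 (log2 1.10 ± 0.16, adjusted p = 0.000286). SLC30A3, a zinc carrier that loads vesicles, rose from 56.7, 52.5 and 62.8 to 153, 149 and 108 (log2 0.997 ± 0.16, adjusted p = 0.000573). Both had separate arrays at birth, lay above every fetal array up to 120 days and kept their calls with hybridization-control centring. The call for SLC41A1 at birth was lost with its second probe set. The zinc importer SLC39A14, which also carries iron, rose from 43.3 ± 7.72 to 62.2 ± 3.13 (log2 0.38 ± 0.12, adjusted p = 0.0227). It lost the call without 3-day replicate 1 or 3 or fetal replicate 2 (adjusted p = 0.0580 to 0.0904) and with hybridization-control centring (0.10, adjusted p = 0.659). The fourth rise was that of SLC39A2, at 0.55 (adjusted p = 0.0457), which 9 of 12 fits without 1 array did not keep.

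SLC31A2, a copper carrier of endosomes, fell from 301, 421 and 391 to 195, 259 and 159 (log2 -0.81 ± 0.30, adjusted p = 0.0451), a call lost in 7 of 12 fits without 1 array (adjusted p up to 0.136). SLC39A7, which releases zinc from the endoplasmic reticulum, fell from 355, 531 and 199 to 193, 188 and 185 (log2 -0.77 ± 0.28, adjusted p = 0.0408), a call lost in 8 of 12. Without fetal replicate 2 the change of SLC39A7 was -0.45 (adjusted p = 0.162). From the fetus to 120 days SLC39A7 fell by 1.31 ± 0.28 (adjusted p = 0.00222), which all 12 fits kept. The brightest metal carrier, the zinc importer SLC39A1, was not called, at 622 ± 59.2 in the fetus and 672 ± 104 at 3 days (log2 0.10, adjusted p = 0.687), but its second probe set fell from 179 ± 18.5 to 101 ± 18.9 (log2 -0.72, adjusted p = 0.0033). The 2 probe sets of SLC39A1 disagree. SLC11A2 (DMT1), an iron importer, read 49.3 ± 10.8 and 49.7 ± 11.9 (log2 0.01, adjusted p = 0.981). SLC39A5 (0.04), SLC30A5 (-0.06) and the copper importer SLC31A1 (-0.62, adjusted p = 0.0705) had no call.

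All 3 lipid and choline carriers were called at birth, where 43.0% of all probe sets were called in either direction. SLC44A2, a choline carrier, rose from 129, 112 and 123 to 272, 275 and 252 (log2 1.02 ± 0.19, adjusted p = 0.00114). SLC27A1 (FATP1), the fatty acid transport protein of muscle and fat, rose from 33.4, 34.6 and 41.7 to 60.7, 60.3 and 62.6 (log2 0.52 ± 0.10, adjusted p = 0.0015), but not with hybridization-control centring (0.23, adjusted p = 0.175). The summed adipocyte markers were higher at 3 days too, and their part in the level of SLC27A1 was not tested. SLC27A6, a relative found in heart, fell by 0.42 from dim values of 69.8, 54.8 and 43.7 to 42.5, 40.1 and 26.5 (adjusted p = 0.0497), and 10 of 12 fits without 1 array did not keep the call.

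Among 5 carriers of organic acids and cations, 1 (20%) rose at birth, against 20.3% of all probe sets. SLC16A3 (MCT4), which exports lactate from glycolytic fibres, read 165, 127 and 294 in the fetus and 484, 287 and 595 at 3 days (log2 1.15 ± 0.33, adjusted p = 0.0147). Fetal replicate 3 lay above 3-day replicate 2. The call was lost without 3-day replicate 3 or fetal replicate 2 (log2 0.94 and 0.92, adjusted p = 0.0553 and 0.0649) and with hybridization-control centring (0.87, adjusted p = 0.0673). SLC22A5 (OCTN2), the carnitine importer, was not called (25.5, 21.6 and 126 in the fetus and 34.2, 33.3 and 33.3 at 3 days, adjusted p = 0.563), and its highest value was again on fetal replicate 3. SLC22A3, an organic cation carrier, fell from 129, 134 and 70.2 in the fetus to 28.7, 19.1 and 26.2 at 120 days (log2 -1.496 ± 0.43, adjusted p = 0.0132). A 60-day array stood at 259, above all others of SLC22A3.

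Of 7 ion carriers, 1 (14.3%) rose and 2 (28.6%) fell at birth, against 20.3% and 22.6% of all probe sets. SLC4A2, a chloride and bicarbonate exchanger, rose from 43.6, 38.4 and 48.8 to 77.2, 64.6 and 74.0 (log2 0.52 ± 0.14, adjusted p = 0.00953), but not with hybridization-control centring (0.24, adjusted p = 0.236). SLC12A4, a potassium and chloride cotransporter, fell from 51.4, 89.4 and 60.3 to 24.3, 23.9 and 50.5 (log2 -0.72 ± 0.21, adjusted p = 0.0162). The call for SLC12A4 was lost without 3-day replicate 1 or 2 or fetal replicate 2 (adjusted p = 0.0658 to 0.0732). SLC26A11, a sulphate and chloride carrier, fell from 52.1, 42.7 and 74.1 to 28.1, 30.4 and 37.8 (log2 -0.53 ± 0.16, adjusted p = 0.0181), lost without 3-day replicate 1 or 2 or fetal replicate 3 (adjusted p = 0.0544 to 0.0645).

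The sodium gradient that many carriers use is kept by the sodium pump, and some carriers need a chaperone subunit to reach the membrane. Of 9 kept genes on that list 2 rose and 1 fell at birth, where 20.3% of all probe sets were higher and 22.6% lower. ATP1B1, the beta subunit of the pump, rose from 298, 339 and 469 to 2208, 1875 and 1973 (log2 2.41, adjusted p = 9.94e-06). FXYD6, a regulator of the pump, fell from 819, 1242 and 1029 to 271, 370 and 204 (log2 -1.81, adjusted p = 0.000465). BSG, the chaperone of SLC16A3, was not called (log2 0.53). SLC8B1, the mitochondrial sodium and calcium exchanger, showed no call (0.05), nor did SLC26A6 (0.47, adjusted p = 0.103).

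Of 14 carriers of vitamins, nucleosides and nucleotide sugars, 3 (21.4%) rose and 2 (14.3%) fell at birth, against 20.3% and 22.6% of all probe sets. SLC35B1, which brings ATP into the endoplasmic reticulum, rose from 155, 124 and 114 to 234, 251 and 276 (log2 0.86 ± 0.24, adjusted p = 0.0119), but not with hybridization-control centring (0.58, adjusted p = 0.0822). SLC35B3, a Golgi carrier of the sulphate donor PAPS, fell from 80.9, 128 and 96.8 to 43.9, 45.4 and 61.0 (log2 -0.78 ± 0.16, adjusted p = 0.0021), which all 12 fits without 1 array kept. SLC35F5, the brightest of the class, went from 306, 446 and 410 down to 192, 257 and 268 and back to 550, 393 and 375 at 60 days. Its fall of 0.65 at birth was called (adjusted p = 0.0366, lost without any 1 of 5 arrays) and its later change of 0.82 was not (adjusted p = 0.1).

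The folate carrier SLC46A1 rose by 0.33 and SLC5A6, which carries biotin and pantothenate, by 0.54 (adjusted p = 0.035 and 0.0482). Without 3-day replicate 3 the change of SLC5A6 was 0.32 (adjusted p = 0.185). They lost their calls in 5 and 10 of 12 fits without 1 array and with hybridization-control centring. SLC29A1 (ENT1), the nucleoside carrier, was not called, at 43.8 ± 7.08 and 47.1 ± 4.97 (log2 0.08, adjusted p = 0.761). Of 3 orphan or loosely assigned carriers, SLC46A3, a lysosomal protein, rose from 26.2, 24.3 and 26.7 to 61.0, 62.9 and 40.7 (log2 0.69 ± 0.14, adjusted p = 0.00194). The call for SLC46A3 was lost with its second probe set. SLC45A2 rose by 0.38, lost in 9 of 12 fits without 1 array. Among the symbols that are not carriers, SLC9A3R1 passed narrowly (0.55, adjusted p = 0.0497) and 11 of 12 such fits lost it. SLC2A4RG, a regulator of the SLC2A4 promoter in other species, was not called (548 ± 148 in the fetus and 269 ± 21.4 at 3 days, log2 -0.95, adjusted p = 0.1), and neither was SLC9A3R2 (0.10).

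After birth few carriers were called. From 3 to 60 days 1 member rose, SLC2A12, and 0 fell, where 0.786% of all probe sets were higher and 0.742% lower, 1.53% in all. At an unadjusted p under 0.05 there were 15 members at this step, against 16.6% of all probe sets, among them SLC2A4, SLC25A1 and SLC3A1. From 60 to 120 days limma called 0 members and 0 of all probe sets (0% in either direction). At an unadjusted p under 0.05 there were 8 of 89 members, and 6.32% of all probe sets. From 3 to 120 days 2 members rose, SLC2A12 and SLC37A4, and 1 fell, SLC7A1, against 2.29% and 2.12% of all probe sets, 4.42% in all. The rise of SLC37A4 over that span was 1.43 ± 0.37 (adjusted p = 0.0468) and was lost in 10 of 12 fits without 1 array (adjusted p up to 0.146) and with hybridization-control centring (adjusted p = 0.0548). SLC2A12 rose by 1.21 ± 0.21 (adjusted p = 0.00755), kept in all of them.

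Compared with the fetus, 30 members were higher and 20 lower at 120 days, where 23.4% of all probe sets were higher and 25% lower, 48.4% in all. This comparison shares its fetal arrays with the step at birth. Of the 29 rises at birth 25 were also called at 120 days, and of the 14 falls 12 were. SLC7A1, SLC39A2, SLC39A14 and SLC9A3R1 rose at birth without a call at 120 days, and SLC25A17 and SLC35F5 fell without one. Another 5 members, not called at birth, were higher at 120 days, SLC2A8, SLC2A12, SLC26A6, SLC35D2 and SLC45A3. SLC45A3 read 45.4 ± 6.65 in the fetus and 66.9 ± 4.33 at 120 days (log2 0.41, adjusted p = 0.0276). A further 8 not called at birth were lower, SLC3A1, SLC22A3, SLC25A1, SLC25A6, SLC25A21, SLC25A24, SLC33A1 and SLC50A1. SLC33A1, which brings acetyl-CoA into the endoplasmic reticulum, fell from 77.9, 168 and 96.9 in the fetus to 39.7, 29.6 and 30.8 at 120 days (log2 -1.26 ± 0.26, adjusted p = 0.00187), and all 12 fits without 1 array kept it. No member was called in opposite directions at birth and from 3 to 60 days, as 0.656% of all probe sets were. With hybridization-control centring the counts at 120 days were 13 higher and 35 lower. Of all 16166 probe sets 1192 were then higher and 7185 lower.

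In the pattern over all 12 arrays, SLC2A4 was most like SLC3A2, with a Pearson correlation of log2 values of 0.913, then SLC26A6 at 0.890 and SLC35B1 at 0.869. SLC25A4 was most like SLC25A3 at 0.960, SLC25A11 at 0.948 and SLC44A2 at 0.947. These values describe arrays of 4 stages that share the change at birth. At the edge of the filter, SLC16A13 lay just inside, with its third-highest array at 1.005 times the 40th percentile, followed by SLC34A2 at 1.09 and SLC25A14 at 1.11. SLC35C1 at 0.989, SLC39A4 at 0.980 and SLC6A4 at 0.945 lay just outside.

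The other 31 symbols stayed below the filter, among them SLC8A1, the sodium and calcium exchanger of the cell surface, and SLC4A4, a sodium and bicarbonate cotransporter. In a fit of all 23999 probe sets without the filter, 32 of the 120 symbols were higher and 16 lower at birth, where 20.3% and 17.4% of all probe sets were, and 6 of the rises and 2 of the falls belonged to symbols below the filter. Of the 89 members, 62 were above the filter's level on all 12 arrays, with 21 rises and 7 falls at birth, and 27 on only some, with 8 rises and 7 falls. The members that passed on few arrays did so through the stage where they were high, so their calls are not independent of the filter. A further 37 kept probe sets belonged to 30 of the members' symbols. Of these, 19 stood beside a member called at birth: all 19 had the same sign, 11 the same call, 8 no call and 0 the opposite call. With its second probe set in place of the brightest, the value for SLC41A1 at birth was 0.23 (adjusted p = 0.0951) in place of 1.10. The same replacement gave 0.69 for SLC25A3 (adjusted p = 0.0525), 0.34 for SLC1A1 (adjusted p = 0.148) and 0.30 for SLC46A3 (adjusted p = 0.192), so that these 4 rises were called with the brightest probe set and not with the second. The rises of SLC39A14 and SLC46A1 and the fall of SLC31A2 at birth lost their calls with the second probe set too.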

How the data were processed

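Biotin-labelled RNA was hybridized to porcine Affymetrix arrays, 1 per sample, per the labels. What the authors deposited is a linear intensity for each probe set on each array, and the submitters' processing notes name GCOS 1.4. How probe sets were summarised and scaled is not stated in those sources. Because array medians agreed within 49.1 to 52.6, no normalization was added. After 124 controls were set aside, 23999 of 24123 probe sets remained, and 16166 (67.4%) passed the filter. A pseudocount of 21, the rounded lower quartile of the data, was added before taking log2, and fold changes on that scale understate the change of dim probe sets. Symbols are those of a 2016 annotation of the platform: 10069 probe sets have 1 symbol, 198 have several and 13732 are unnamed here. Of 120 SLC symbols, 118 were found in the RefSeq gene table through their Entrez identifiers, and 0 had changed.

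All 12 arrays entered 1 limma fit with a mean per stage and a variance trend. Tests were two-sided, p-values were adjusted by Benjamini-Hochberg across the 16166 kept probe sets, and a call means an adjusted p under 0.05. P-values measure the spread between 3 samples a stage, and their precision is limited by the number of arrays. The members, their substrate classes and the pathway and marker lists were chosen with earlier results of these data known.

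Named with values are 41 fixed genes as far as measured (25 matched, 23 kept), up to 4 called rises and 4 called falls per class and step with separate arrays and a stage mean at or above the lowest array median, members called in opposite directions, the 3 brightest of each class, the nearest patterns to SLC2A4 and SLC25A4, and the called list genes with the largest rise and fall per step. Other genes are named to complete a count, after their values were seen. The settings varied were the pseudocount (1 or 51), the filter (none, or the 60th percentile), the scaling (quantile, median or hybridization-control centring), the variance trend, array weights, a fit of only the 6 arrays of a comparison, a block for the replicate number, the probe set standing for a gene, and the omission of single arrays. Software comprised R 4.3.3 with limma 3.58.1 and the package data.table (1.17.8), and Python 3.11.15 with NumPy 2.4.6, pandas 2.3.3 and matplotlib 3.10.9.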

Additional observations from a re-analysis of the deposited data

How the results depend on the processing

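Of 100 class counts, 28 moved by over 1.5 times with hybridization-control centring, 19 with array weights, 15 with only the 6 arrays of a comparison, 10 with the stricter filter, 4 with quantile normalization and 1 with median centring, and the cause was not tested. With hybridization-control centring the counts of members higher and lower were 13 and 26 at birth, 13 and 35 from the fetus to 120 days, and 1 and 4 from 3 to 120 days. Over all 16166 probe sets the centring gave 1253 and 5338, 1192 and 7185, and 187 and 582. By class it gave, at birth, 2 amino acid, 0 ion, 1 lipid, 2 metal, 0 organic, 1 orphan, 1 sugar and 0 vitamin carriers higher and 7 mitochondrial, 5 sugar and 4 vitamin carriers lower, and among the non-carriers 0 higher and 1 lower. By 120 days it gave 2 amino acid, 0 ion, 1 lipid, 0 organic, 1 orphan, 3 sugar and 0 vitamin carriers higher, and 6 amino acid, 5 metal, 9 mitochondrial, 4 vitamin and 1 non-carrier lower. From 3 to 120 days it gave 2 amino acid and 2 mitochondrial carriers lower and 1 sugar carrier higher. With array weights, for which no share over all probe sets is given, 11 members were higher and 17 lower from 3 to 120 days. From 3 to 60 days the counts were 2 and 4. Mitochondrial carriers then made up 9 of the falls to 120 days and 2 of those to 60 days, and 5 fell at birth. The other class counts that moved with weights lay between 1 and 4.

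With only the 6 arrays of a comparison, 7 members were lower from 3 to 120 days, 3 of them mitochondrial and 2 amino acid carriers, and 0 were higher from 3 to 60 days, and the other class counts that moved lay between 0 and 2. Class counts that moved with a filter at the 60th percentile lay between 0 and 2, since fewer members are tested, and those with no filter, other pseudocounts, no variance trend, quantile normalization, median centring or the second probe set between 0 and 2. No filter, the replicate block and the second probe set each left 1 member higher from 3 to 120 days. Without single arrays the counts at birth were 21 to 30 higher and 6 to 16 lower, from the fetus to 120 days 25 to 33 and 16 to 20, from 3 to 60 days 0 to 1 higher, and from 3 to 120 days 1 to 2 and 0 to 2. The class counts that moved ranged at birth from 2 to 5 and 0 to 4 for sugar, 2 to 4 and 0 to 2 for metal, 1 to 2 and 0 to 2 for ion, and 1 to 3 both ways for vitamin carriers. Mitochondrial falls ranged from 1 to 3 at birth and 3 to 5 at 120 days. Of the calls at birth, 19 of 29 rises and 4 of 14 falls were kept without any 1 array.

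Between same-numbered arrays, correlations of deviations from the stage mean were -0.303 to 0.189 for replicate 1, -0.424 to 0.188 for replicate 2 and -0.208 to 0.297 for replicate 3. Replicate 3 nevertheless had the lowest actin 3-prime to 5-prime ratio at every stage, at 2.32, 2.58, 3.85 and 4.17. It also had the highest immune marker sum at every stage, at 3774, 1041, 1043 and 1368. Whether the numbers pair the samples is not stated by the labels, and these correlations do not settle it. With the replicate number as a block 27 members rose and 11 fell at birth, 44 passed the F test, 29 and 19 were called from the fetus to 120 days, and 1 rose from 3 to 60 days. That 1 was SLC2A4 (log2 1.11, adjusted p = 0.0435), not SLC2A12 (adjusted p = 0.0542). Of the class counts with the block, 1 metal, 1 mitochondrial and 1 vitamin carrier fell and 1 orphan rose at birth, and 1 sugar carrier rose from 3 to 120 days. Of 10560 values of single members over all settings, 6 changed sign where the member was called in either setting. SLC39A1 stood at -0.72 at birth and -0.77 at 120 days with its second probe set. With hybridization-control centring and no call, the changes to 120 days were -0.032 for SLC15A1, -0.026 for SLC45A3, -0.030 for SLC46A1 and -0.011 for SLC4A2. Dim probe sets near the 40th percentile of an array limit what can be called.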
